A study of Homo sapiens with 9 samples.

Results

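Of 58310 autosomal CCCGGG sites with a methylation value in all 9 libraries of this HEK293T experiment, 13323 (22.8%) were unmethylated and lay in DNA crowded with further CCCGGG sites. Each had a mean of the 9 values under 5% and at least 3 other listed CCCGGG sites within 1000 bases on either side. They are called dense unmethylated sites here. The mean of the 9 libraries chose them, so that they are low is a description and no finding. The comparisons between groups use differences among the same 9 values, which the mean did not rank.

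The 3 groups were HEK293T cells transfected with a pIRES plasmid for TET1-FL, HEK293T cells transfected with a pIRES plasmid for TET1-ALT, and HEK293T cells transfected with the Empty Vector. HEK293T cells descend from human embryonic kidney and express the large T antigen of SV40. All cells went through the same lipid-based transfection, and DNA was taken 4 days later, with 3 libraries in each group. TET1-FL is the full-length enzyme, and TET1-ALT is the shorter isoform named in the study's title as lacking the CXXC domain. The labels state neither the share of cells that took up a plasmid nor whether replicates came from different cultures. The p-values below therefore reflect the variation among these libraries alone, part of which may be technical. The labels call for at least 20 reads behind each value, and the depth behind single values is otherwise unknown.

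TET enzymes oxidise 5-methylcytosine, the first step of removing it, and the CXXC domain of TET1 binds DNA whose CpGs carry no methyl group. Vertebrate genomes have lost most CpGs outside CpG islands, which are short stretches dense in CpG that usually stay unmethylated and often hold gene promoters. CCCGGG contains one CpG, so DNA crowded with CCCGGG is often of this kind, although no island annotation was used here. An unmethylated island is therefore where the CXXC domain can bind, while it holds little methylcytosine for the enzyme to act on. The study's comparisons ask how methylation differs between cells given either form of TET1 and cells given the vector, and between the 2 forms.

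DREAM, the assay used, reads each site from fragment ends. SmaI cuts CCCGGG only where its CpG is unmethylated, and XmaI then cuts the methylated copies, which leaves a different end. A site is therefore read only if one of the next CCCGGG sites lies at a distance that makes a fragment of suitable length. Per the labels, the ligated fragments were taken from gel slices of 250 to 350 bp and 350 to 500 bp, adapters included. For each site, the flank is here the shorter of the distances to the previous and next listed site, counting only distances of 100 to 1000 bases, and 144 dense unmethylated sites have none.

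The promoters below show what such DNA looks like, with CCCGGG sites closely spaced in one promoter. They are RefSeq windows of 300 bases (250 before to 50 after the gene start, GRCh38.p14), printed 5′ to 3′ on the gene's strand, with every CCCGGG in capitals. The first 2 were chosen because a long-flank and a short-flank site stand side by side, TET3 because it encodes another TET enzyme, and ZBTB7A because it lies in the second largest cluster of dense unmethylated sites.
CCDC88C (chr14:91417771-91418070, minus strand): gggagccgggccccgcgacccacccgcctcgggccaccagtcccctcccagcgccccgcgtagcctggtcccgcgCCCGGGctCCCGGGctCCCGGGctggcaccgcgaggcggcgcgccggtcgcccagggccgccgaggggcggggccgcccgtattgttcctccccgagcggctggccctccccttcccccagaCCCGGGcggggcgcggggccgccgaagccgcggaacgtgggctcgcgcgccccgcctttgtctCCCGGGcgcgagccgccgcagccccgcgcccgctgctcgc
CPSF4 (chr7:99439177-99439476, plus strand): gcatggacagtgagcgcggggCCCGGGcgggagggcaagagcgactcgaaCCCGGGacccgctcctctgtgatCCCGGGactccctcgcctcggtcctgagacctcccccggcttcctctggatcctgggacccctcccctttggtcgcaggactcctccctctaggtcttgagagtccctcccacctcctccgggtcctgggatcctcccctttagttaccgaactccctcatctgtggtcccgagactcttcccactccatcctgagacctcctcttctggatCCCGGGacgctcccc
TET3 (chr2:73984660-73984959, plus strand): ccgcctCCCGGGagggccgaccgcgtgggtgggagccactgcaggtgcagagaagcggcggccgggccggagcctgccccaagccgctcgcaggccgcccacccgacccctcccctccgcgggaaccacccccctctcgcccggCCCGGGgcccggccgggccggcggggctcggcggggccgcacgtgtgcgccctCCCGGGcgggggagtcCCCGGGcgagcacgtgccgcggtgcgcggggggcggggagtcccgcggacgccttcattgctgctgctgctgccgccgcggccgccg
ZBTB7A (chr19:4065480-4065779, minus strand): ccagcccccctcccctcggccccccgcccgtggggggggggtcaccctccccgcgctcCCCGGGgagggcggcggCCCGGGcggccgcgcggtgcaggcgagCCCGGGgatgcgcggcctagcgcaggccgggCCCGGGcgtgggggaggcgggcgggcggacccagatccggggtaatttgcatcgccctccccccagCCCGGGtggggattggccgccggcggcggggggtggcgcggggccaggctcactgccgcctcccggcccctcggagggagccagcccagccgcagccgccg
The deposited sites are named on hg19, so windows and sites were joined by spacing, without converting coordinates. A window was matched where the distances between its successive CCCGGG sites occurred at exactly 1 place among all listed sites. Of 74 windows with 4 or more CCCGGG sites, 73 matched at 1 place, and all 73 matches lay on the gene's own chromosome. With windows of exactly 3 sites, a step added after the data were seen, 202 more windows matched at 1 place, again all on the gene's chromosome. Gaps between neighbouring capitals can be read directly: in CCDC88C, 3 sites follow each other at 8 bases, and in TET3 the nearest pair lies 16 bases apart.

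How common was the unmethylated state in this DNA? The files list 38013 autosomal dense sites, of which 23666 (62.3%) had a value in all 9 libraries, against 10.8% of the sparser listed sites. Of the 23666, 13323 (56.3%) had a mean under 5%, 1042 lay between 5% and 20%, 4024 between 20% and 80%, and 5277 at 80% or more. Among sparser sites, 26.4% of 34644 were under 5%. The share of sites under 5% was 21.7% with 1 neighbour within 1000 bases, 46.6% with 3, 64.5% with 5 and 74.3% with 8 (649 sites). It was 16.7% among the 60 sites with 15 or more neighbours.

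Sites close to a dense unmethylated site were mostly unmethylated too, and this share was smaller at larger distances. Sites within 50 bases of a dense unmethylated site were under 5% themselves in 98.5% of 1107 pairs. At over 700 and up to 1000 bases, 80.1% were under 5%. At over 2000 and up to 5000 bases, 35.9% were under 5% and 58.8% were at 20% or more. The pairs share sites and are a description. For 5764 of the 13323 sites (43.3%), no site of 20% or more with a value in all 9 libraries lay within 20 kb. Only 10.8% of the sparser listed sites had such values, so methylated sites that were not read may lie closer.

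**Figure D1:**
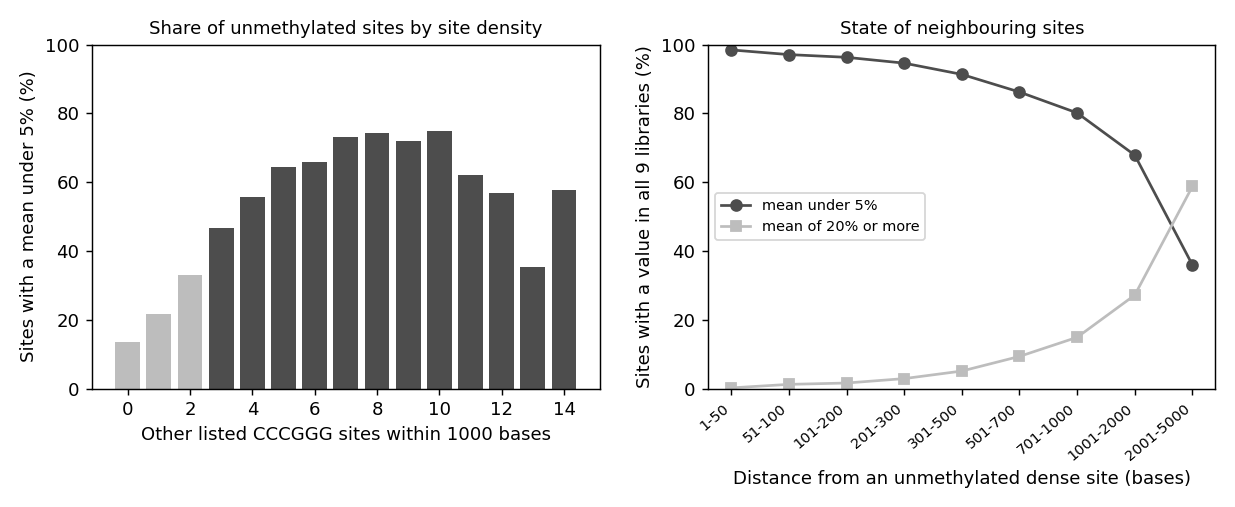
Left: percentage of autosomal sites with a value in all 9 libraries whose mean was under 5%, by how many further listed sites lay within 1000 bases (dark bars: 3 or more, from which the dense unmethylated sites come). Right: percentage of sites under 5% and of 20% or more by distance in bases from a dense unmethylated site, which were 98.5% and 0.181% within 50 bases and 35.9% and 58.8% in the farthest class, over 2000 bases away.

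Within the class, levels were mostly far below the 5% limit. The median of the 9-library means was 0.176%, 55.6% of the sites lay under 0.2% and 91.3% under 1%. The 1157 sites (8.68%) of 1% or more held 47.6% of the summed methylation. Levels of 1% or more were more frequent beside methylated DNA, although most such sites lay elsewhere (467 of the 1157 were within 1000 bases of a site of 20% or more). Of the 1969 sites within 1000 bases of a site of 20% or more, 23.7% reached 1%, with a median of 0.289%. Of the 5764 sites over 20 kb from any such measured site, 5.12% reached 1%, with a median of 0.156%. Just inside the 5% limit, the last 3 sites averaged 4.97%, 4.98% and 4.99%, and just outside it the next 3 averaged 5.00%, 5.01% and 5.02%. The limit cut through a thin region, with 117 sites of 4% to under 5% inside it and 105 dense sites of 5% to under 6% outside.

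The lower end of the scale needs care. None of the 9 libraries listed an autosomal site at exactly 0% or 100%, and the lowest value among dense unmethylated sites was 0.01% or 0.02% in every library, at a rounding step of 0.01. The low end was not the same for all sites. The 5th percentile of sites with flanks of 100 to under 300 bases lay between 0.03% and 0.05% in every library. With flanks of 500 to 1000 bases, it was 0.16%, 0.14% and 0.10% in the 3 TET1-FL libraries, 0.17%, 0.12% and 0.11% in the 3 TET1-ALT libraries, and 0.20%, 0.24% and 0.41% in the 3 Empty Vector libraries. So the lowest values found at long-flank sites were higher in each Empty Vector library than in any TET1 library.

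The share of long-flank sites read at all also differed between libraries. Of 4409 listed dense sites with flanks of 500 to 1000 bases, 50.7%, 59.5% and 67.6% had a value in the TET1-FL libraries. In TET1-ALT libraries these shares were 56.7%, 59.5% and 61.9%, and in Empty Vector libraries 52.2%, 51.2% and 38.1%. Empty Vector replicate 3, which had the fewest sites with a value in all (61549, against 66010 to 72340 in the TET1 libraries), had both the lowest share and the highest low end. TET1-FL replicate 3 had the most sites with a value, the highest share and the lowest low end. With flanks of 100 to under 300 bases, the shares were 86.6% to 87.5% in all 9 libraries.

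Averaged over all 13323 sites, methylation was 0.379%, 0.361% and 0.411% in the 3 TET1-FL libraries. It was 0.386%, 0.393% and 0.433% in the TET1-ALT libraries, and 0.425%, 0.410% and 0.461% in the Empty Vector libraries. All 3 groups overlapped. The group means were 0.384% ± 0.0251 for TET1-FL, 0.404% ± 0.0251 for TET1-ALT and 0.432% ± 0.0261 for Empty Vector (SD, n = 3 each). The difference between TET1-FL and Empty Vector was -0.0484 percentage points, with differences between single libraries running from -0.0996 to 0.000865 (two-sided exact permutation p = 0.2). The difference between TET1-ALT and Empty Vector was -0.0280 points (exact permutation p = 0.3), and that between TET1-FL and TET1-ALT was -0.0204 points (exact permutation p = 0.4). After Benjamini-Hochberg adjustment over the 3 comparisons, each exact permutation p was 0.4, and 3 libraries against 3 cannot give a p below 0.1. Both differences from Empty Vector were larger than the SDs of the groups, but the libraries overlapped. The difference between the TET1 forms was smaller than these SDs. The median site lay between 0.14% and 0.17% in every library. The TET1-FL mean was lower than the Empty Vector mean on 22 of 22 autosomes, with separate libraries on 12 of them, and the TET1-ALT mean on 22, with separate libraries on 3. The same 9 libraries stand behind each chromosome, so these are not 22 independent observations.

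**Figure D2:**
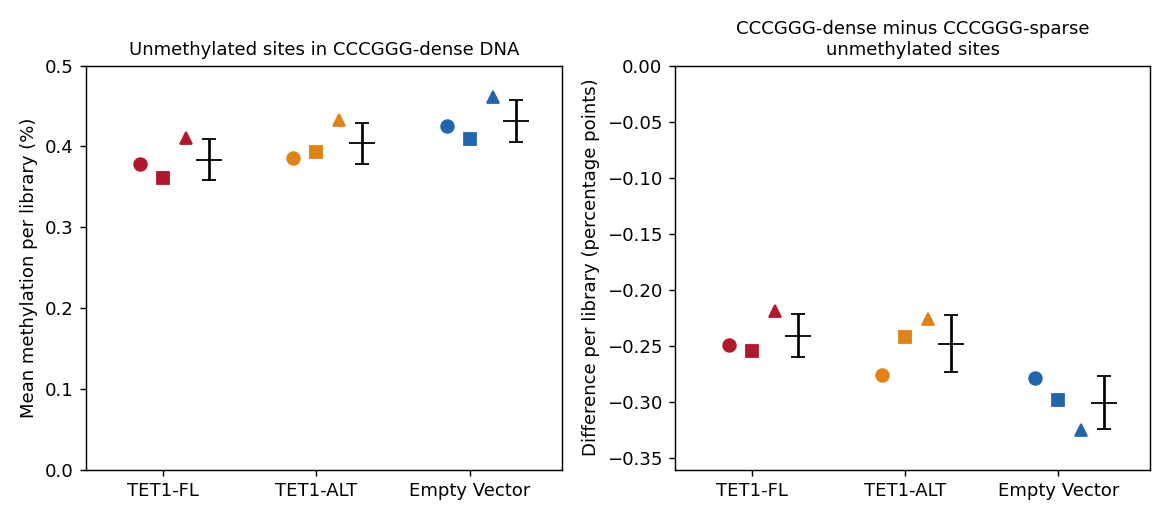
Left: mean methylation in percent over the 13323 dense unmethylated sites in each library. Right: the same mean minus the mean over 9156 unmethylated sites with fewer than 3 neighbours, in percentage points. Points are libraries (circle, square and triangle: replicates 1, 2 and 3), and bars are the group mean and SD of 3 libraries. The groups overlap on the left, and on the right the 3 Empty Vector libraries lie below the TET1 libraries of both kinds.

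At single sites, no difference passed the test. In limma, fitted to percent values of all 59751 complete sites in the 9 libraries, the number of sites called at an adjusted p under 0.05 was 0 in each comparison, both among the dense unmethylated sites and over all sites (0%). At an unadjusted p under 0.05, TET1-FL was lower than Empty Vector at 854 dense unmethylated sites (6.41%, against 9.72% of all sites) and higher at 140 (1.05%, against 1.11%). TET1-ALT was lower than Empty Vector at 834 sites (6.26%, against 5.49% of all sites) and higher at 216 (1.62%, against 1.73%). TET1-FL was lower than TET1-ALT at 228 sites (1.71%, against 4.46% of all sites) and higher at 161 (1.21%, against 1.10%). These counts depended on single libraries. Without TET1-FL replicate 3, TET1-FL was lower than Empty Vector at 376 sites (2.82%, against 6.88% of all sites). Without TET1-FL replicate 2, TET1-FL was lower at 505 (3.79%, against 7.93%). Without TET1-ALT replicate 3, TET1-ALT was lower than Empty Vector at 378 (2.84%, against 3.05% of all sites). Without TET1-ALT replicate 2, TET1-ALT was lower at 432 (3.24%, against 3.64%). Without Empty Vector replicate 1, the counts lower than Empty Vector rose to 1183 for TET1-FL (8.88%, against 9.64%) and 1152 for TET1-ALT (8.65%, against 6.46%). Without Empty Vector replicate 2, they were 888 (6.67%, against 8.30%) and 899 (6.75%, against 5.31%). Without Empty Vector replicate 3, they were 655 (4.92%, against 8.49%) and 655 (4.92%, against 4.80%). Those higher in TET1-FL than in Empty Vector numbered 278 without TET1-FL replicate 1 (2.09%, against 1.53%). They numbered 282 without TET1-FL replicate 2 (2.12%, against 1.496%). Those higher in TET1-ALT than in Empty Vector numbered 412 without TET1-ALT replicate 1 (3.09%, against 2.003%). They numbered 327 without TET1-ALT replicate 2 (2.45%, against 1.98%). Between the TET1 forms, TET1-FL was lower at 380 without TET1-ALT replicate 1 (2.85%, against 3.65% of all sites). It was lower at 360 without TET1-ALT replicate 2 (2.702%, against 4.35%). It was higher at 245 without TET1-FL replicate 2 (1.84%, against 1.34%) and at 105 without TET1-ALT replicate 1 (0.788%, against 1.29%). The smallest adjusted p among dense unmethylated sites was 0.0843 for TET1-FL against Empty Vector, 0.490 for TET1-ALT against Empty Vector and 0.127 for TET1-FL against TET1-ALT.

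A second view comes from sites at which the 3 libraries of one group were all below, or all above, the 3 of the other. All 3 TET1-FL libraries lay below all 3 Empty Vector libraries at 1617 dense unmethylated sites (12.1%, against 14.9% of all complete sites) and above them at 343 (2.57%, against 2.13%). All 3 TET1-ALT libraries lay below Empty Vector at 1703 sites (12.8%, against 10.1%) and above at 345 (2.59%, against 3.14%). TET1-FL lay below TET1-ALT at 297 sites (2.23%, against 7.36%) and above at 223 (1.67%, against 1.94%). At unmethylated sites in sparser DNA, TET1-FL lay below Empty Vector at 17.1% and above at 2.02%, TET1-ALT below Empty Vector at 17.5% and above at 2.18%, and TET1-FL below TET1-ALT at 2.58% and above at 1.65%. The shares of dense unmethylated sites below Empty Vector were near those of all sites, and the share at which TET1-FL lay below TET1-ALT was smaller. The 2 comparisons with Empty Vector share its libraries.

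Separation from Empty Vector depended on how a site was flanked. Where the flank was 100 to under 300 bases (9507 sites, 71.4% of the dense unmethylated sites), TET1-FL libraries averaged 0.346%, 0.332% and 0.401%, TET1-ALT libraries 0.350%, 0.370% and 0.424%, and Empty Vector libraries 0.382%, 0.356% and 0.375%. The groups overlapped. The difference from Empty Vector was -0.0113 points for TET1-FL (single libraries from -0.0505 to 0.0458, exact permutation p = 0.7) and 0.0103 points for TET1-ALT (exact permutation p = 0.9). TET1-FL lay below Empty Vector at 362 of these sites (3.81%) and above it at 308 (3.24%), and TET1-ALT below at 361 (3.80%) and above at 311 (3.27%). At unmethylated sites in sparser DNA with these flanks, 3.73% lay below and 3.03% above for TET1-FL. For TET1-ALT, the shares there were 3.01% and 3.21%. At dense sites of 20% or more, they were 18.2% and 1.71% for TET1-FL, and 8.49% and 3.38% for TET1-ALT.

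Where the flank was 400 to 1000 bases (1820 sites, 13.7%), the groups separated. TET1-FL libraries averaged 0.547%, 0.504% and 0.448%, TET1-ALT libraries 0.565%, 0.495% and 0.472%, and Empty Vector libraries 0.645%, 0.677% and 0.918%. Every TET1 library of either form lay below every Empty Vector library. The difference from Empty Vector was -0.247 points for TET1-FL and -0.236 points for TET1-ALT, each with an exact permutation p of 0.1, the smallest that 3 libraries against 3 can give. TET1-FL lay below Empty Vector at 52.1% of these sites, and TET1-ALT did at 52.1% as well. They lay above it at 0.549% and 0.440%. At unmethylated sites in sparser DNA with these flanks, the shares below were 44.7% and 43.2%, and those above 0.664% and 0.742%. At dense sites of 20% or more, 11.1% and 6.58% lay below, and 3.15% and 4.52% above. The 2 TET1 forms overlapped at the 1820 sites, with a difference of -0.0106 points. Without Empty Vector replicate 3, the differences were -0.161 and -0.151 points, with groups still apart.

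Sites with flanks of 300 to under 400 bases lay between these. There TET1-FL averaged 0.351% ± 0.0104 and Empty Vector 0.402% ± 0.00945 (SD, n = 3 each), with 16.5% of 1852 sites separate and lower in TET1-FL, and 1.08% separate and higher. At unmethylated sites in sparser DNA with these flanks, the shares were 14.3% lower and 1.22% higher. At dense sites of 20% or more, they were 16.6% and 1.51%. In all, 1253 of the 1617 sites at which TET1-FL lay below Empty Vector (77.5%) and 1340 of the 1703 for TET1-ALT (78.7%) had flanks of 300 to 1000 bases, against 27.6% of the dense unmethylated sites as a whole.

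The dependence on flank was compared between groups directly, by the mean over long flanks (400 to 1000 bases) minus the mean over short ones (100 to under 300) in each library. This difference was 0.202, 0.172 and 0.0466 points in TET1-FL libraries, 0.215, 0.125 and 0.0479 in TET1-ALT libraries and 0.263, 0.322 and 0.543 in Empty Vector libraries. Set against Empty Vector, it differed by -0.236 points in TET1-FL and by -0.247 points in TET1-ALT (exact permutation p = 0.1 each, 0.15 adjusted over 3 comparisons), with all libraries apart. Without Empty Vector replicate 3, the differences were -0.152 and -0.163 points. The 2 TET1 forms overlapped (difference 0.0110, exact permutation p = 1.0). The low end of the values and the share of sites read, given above, also varied with flank and library, and their part in the result was not tested.

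**Figure D3:**
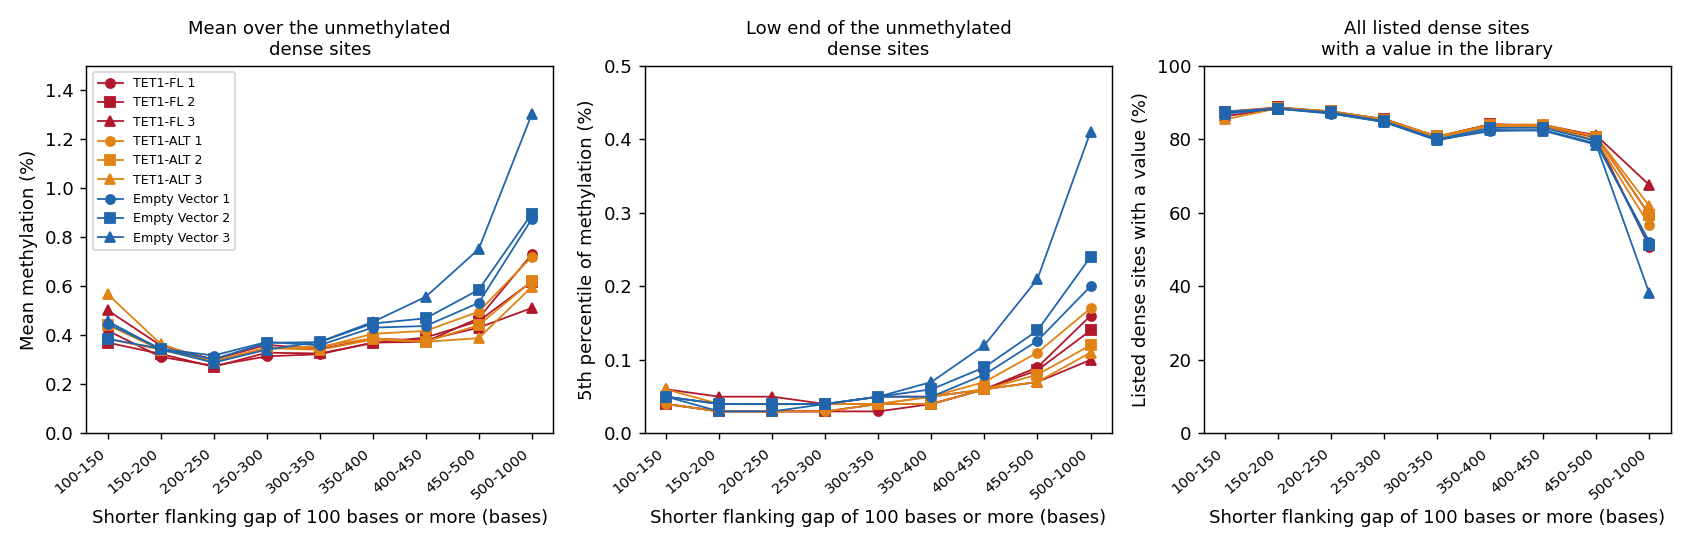
Each line is a library (red TET1-FL, orange TET1-ALT, blue Empty Vector), plotted against flank class in bases. Left, mean methylation of the dense unmethylated sites in percent; middle, their 5th percentile in percent; right, percentage of all listed dense sites with a value. At 500 to 1000 bases, the Empty Vector libraries averaged 0.874%, 0.896% and 1.30%, above TET1-FL at 0.730%, 0.619% and 0.512% and TET1-ALT at 0.720%, 0.621% and 0.598%.

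**Figure D4:**
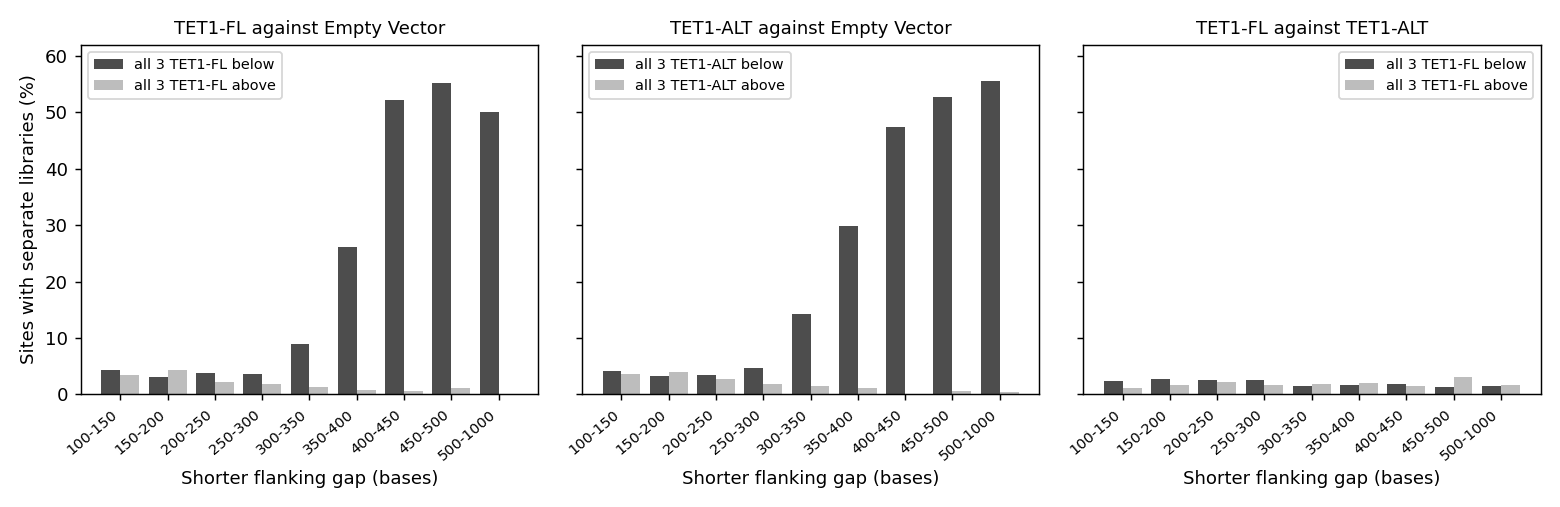
Percentage of dense unmethylated sites in each flank class (bases) at which all 3 libraries of the first group lay below (dark) or above (light) all 3 of the second. Against Empty Vector, the share below was 50.1% for TET1-FL and 55.5% for TET1-ALT at 500 to 1000 bases, and it was under 5% in each class under 300 bases. Between TET1-FL and TET1-ALT no class exceeded 3.09%. At unmethylated sites in sparser DNA, not drawn, the shares below Empty Vector at 500 to 1000 bases were 42.0% for TET1-FL and 46.3% for TET1-ALT.

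Methylated sites in equally dense DNA had differences of similar size in both flank classes. At dense sites of 20% or more, TET1-FL differed from Empty Vector by -1.25 points with flanks of 100 to under 300 bases (75.3% against 76.5%, 5734 sites) and by -1.28 points with flanks of 400 to 1000 bases (73.2% against 74.5%, 1748 sites). The TET1-FL and Empty Vector libraries were apart in both classes (exact permutation p = 0.1 each). TET1-ALT differed from Empty Vector by -0.483 and -0.439 points in the same classes, and its libraries overlapped with those of Empty Vector (exact permutation p = 0.4 and 0.2).

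Unmethylated sites in sparser DNA shared the pattern of the dense ones. With flanks of 100 to under 300 bases, TET1-FL differed from Empty Vector by -0.0197 points at 4824 sparse unmethylated sites, and the groups overlapped. With flanks of 400 to 1000 bases, the difference was -0.303 points at 2560 sites, and the libraries were apart. Over all flanks, dense sites averaged less than sparse ones in every library, with differences of -0.249, -0.254 and -0.219 points in TET1-FL, -0.275, -0.242 and -0.226 in TET1-ALT and -0.278, -0.298 and -0.325 in Empty Vector libraries. Set against Empty Vector, this dense minus sparse difference was higher by 0.0597 points in TET1-FL and by 0.0526 points in TET1-ALT, with libraries apart (exact permutation p = 0.1, adjusted 0.15, for each). The ratio of the dense to the sparse mean did not separate the groups. It averaged 0.614 in TET1-FL, 0.620 in TET1-ALT and 0.590 in Empty Vector libraries. Both TET1 forms overlapped with Empty Vector in this ratio (exact permutation p = 0.4 and 0.3). Within flanks of 100 to under 300 bases, the dense minus sparse difference was higher by 0.00838 points for TET1-FL (exact permutation p = 0.4) and by 0.000324 points for TET1-ALT (exact permutation p = 1.0). Within flanks of 400 to 1000 bases, it was higher by 0.0564 points for TET1-FL and by 0.0481 points for TET1-ALT, with libraries apart (exact permutation p = 0.1 each). The median flank was 210 bases at dense and 282 bases at sparse unmethylated sites.

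Among short-flank sites, TET1-FL separated from both other groups at the few with the most methylation. At the 715 sites with a flank of 100 to under 300 bases and a mean of 1% or more, TET1-FL libraries averaged 2.15%, 2.07% and 2.21%, TET1-ALT libraries 2.30%, 2.23% and 2.35%, and Empty Vector libraries 2.38%, 2.30% and 2.34%. Every TET1-FL library lay below every library of the other groups, while TET1-ALT and Empty Vector overlapped. Relative to Empty Vector, the TET1-FL mean differed by -8.53%, and relative to TET1-ALT by -6.47% (exact permutation p = 0.1 each). TET1-ALT differed from Empty Vector by -2.20% (exact permutation p = 0.5). Site by site, TET1-FL lay below Empty Vector at 66 of the 715 sites (9.23%, against 14.9% of all complete sites) and above at 28 (3.92%, against 2.13%). It lay below TET1-ALT at 57 (7.97%, against 7.36%) and above at 15 (2.10%, against 1.94%). At the 377 of these sites with a mean under 2%, TET1-FL overlapped with both other groups. Its differences there were -0.131 points from Empty Vector and -0.133 points from TET1-ALT (exact permutation p = 0.2 and 0.3). At the 338 sites of 2% or more, TET1-FL lay below both, by -0.276 and -0.165 points (exact permutation p = 0.1 each). At the 8792 short-flank sites under 1%, TET1-FL and Empty Vector averaged 0.215% and 0.211% and overlapped. Unmethylated sites in sparser DNA of 2% to under 5%, over all flanks, averaged 3.13% in TET1-FL, 3.28% in TET1-ALT and 3.49% in Empty Vector libraries. The split at 1% was made after the data were seen.

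Position beside methylated DNA gave a similar split. At the 1346 short-flank sites within 1000 bases of a site of 20% or more, TET1-FL libraries averaged 0.719%, 0.696% and 0.742%, TET1-ALT libraries 0.750%, 0.739% and 0.774%, and Empty Vector libraries 0.781%, 0.760% and 0.777%. Each TET1-FL library was lower than each Empty Vector library, with a difference of -0.0537 points (exact permutation p = 0.1), and TET1-ALT overlapped with both. The 2 splits share sites, since 23.2% of the 1346 had a mean of 1% or more and were among the 715 above. Site by site, TET1-FL lay below Empty Vector at 71 (5.27%, against 14.9% of all complete sites) and above at 43 (3.19%, against 2.13%). At the 8161 short-flank sites farther away, TET1-FL averaged 0.300% ± 0.0394 and Empty Vector 0.305% ± 0.0141 (SD, n = 3 each), and they overlapped.

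Adjacent dense unmethylated sites were related in level to a degree that differed with their distance. Across 1383 adjacent pairs at 150 to under 200 bases, Spearman's rho of the 9-library means was 0.426, and the median ratio of the larger to the smaller value was 1.61. Across 1720 pairs at 100 to under 150 bases, rho was 0.310 and the ratio 1.85. Across 539 pairs at 500 to 1000 bases, rho was 0.129 and the ratio 2.17. Both ends of such a fragment are read from the same molecules, and pairs are not independent, so these correlations only describe the sites.

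The values at the promoters printed above are given as examples. CCDC88C and CPSF4 were picked for holding a long-flank and a short-flank site and are no support for the difference between flanks. CCDC88C encodes DAPLE, a scaffold of Wnt and G protein signalling, and its window held 4 dense unmethylated sites. The site 175 bases before the gene start, the outermost of the 3 at 8-base steps, is read through a flank of 576 bases. There TET1-FL libraries had 0.86%, 0.63% and 0.29%, TET1-ALT libraries 0.69%, 0.36% and 0.32%, and Empty Vector libraries 0.75%, 1.35% and 1.90%. The 3 Empty Vector libraries exceeded all TET1-ALT libraries, and 1 TET1-FL library lay among them. The site at -159, only 16 bases away but read through a flank of 106 bases, had 0.60%, 0.41% and 1.01% in TET1-FL libraries, 0.39%, 0.49% and 1.08% in TET1-ALT libraries and 0.79%, 0.38% and 0.55% in Empty Vector libraries, all overlapping. The site at -53, at the other end of that fragment, had nearly the same values in every library.

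CPSF4 encodes a subunit of the complex that recognises the polyadenylation signal. Its site at -229 has a flank of 541 bases and had 0.62%, 0.47% and 0.27% in TET1-FL libraries, 0.55%, 0.37% and 0.33% in TET1-ALT libraries and 0.72%, 0.86% and 1.44% in Empty Vector libraries. Every Empty Vector library was above every TET1 library there. The site at -177, 52 bases downstream with a flank of 212 bases, averaged 0.113% in TET1-FL libraries, 0.143% in TET1-ALT libraries and 0.0567% in Empty Vector libraries.

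**Figure D5:**
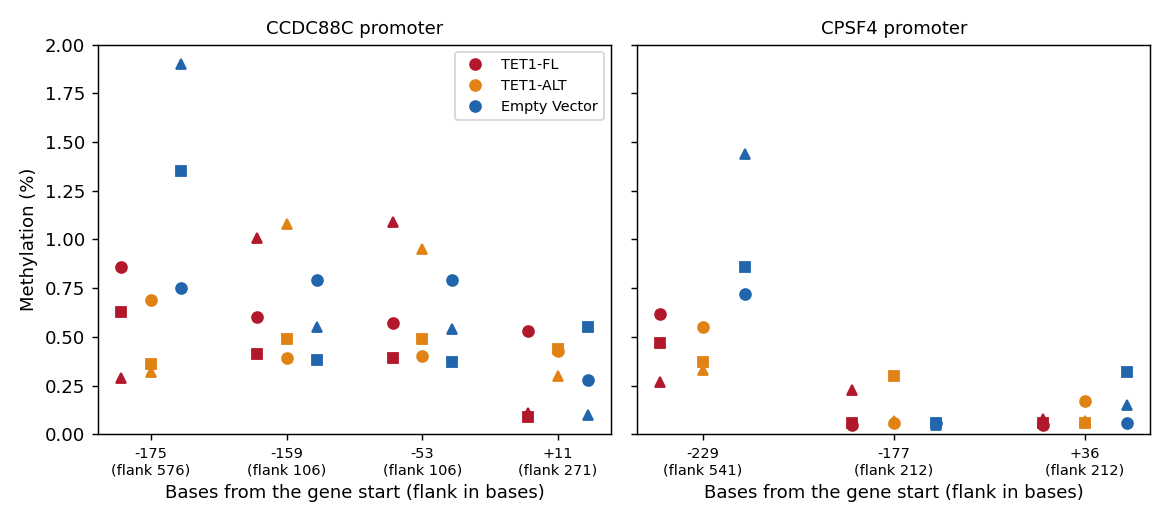
Methylation in percent at each dense unmethylated site of the CCDC88C and CPSF4 promoters, by distance from the gene start, with the flank of the site in bases beneath. Points are libraries (circle, square and triangle: replicates 1, 2 and 3). The leftmost site of each panel has a flank over 500 bases and carries the Empty Vector values of 0.75% to 1.90% and 0.72% to 1.44%; the Empty Vector values at the other sites do not exceed 0.79%.

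TET3, which encodes the TET enzyme of the oocyte and early embryo, had 3 dense unmethylated sites in its window, with flanks of 124 to 138 bases. Its site at -244 had 0.05%, 0.05% and 0.08% in TET1-FL libraries, 0.22%, 0.05% and 0.08% in TET1-ALT libraries and 0.05% in each Empty Vector library. Its site at -106 ranged from 0.17% to 0.69% in TET1-FL, from 0.37% to 1.35% in TET1-ALT and from 0.14% to 0.77% in Empty Vector libraries. The groups overlapped at both. ZBTB7A, which encodes a zinc finger repressor, had 5 CCCGGG sites in its window, and the one at -51 was complete, with 0.34%, 0.33% and 0.49% in TET1-FL libraries, 0.27%, 0.37% and 0.59% in TET1-ALT libraries and 0.30%, 0.28% and 0.31% in Empty Vector libraries.

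Which genes have such promoters? Of the 73 windows matched through 4 or more sites, 47 held at least 1 dense unmethylated site. Genes of RNA production and translation were among them: besides CPSF4, POLR1D, a subunit of RNA polymerases I and III, had 3 sites averaging 0.0989% to 0.496%, and GCN1, a ribosome-bound regulator of the amino acid stress response, had 1 at 0.132%. SUN2 of the inner nuclear membrane had 3 sites (0.112% to 1.13%), and SYNE3, a nesprin of the outer membrane, had 2 (0.121% and 0.664%). Among regulators of transcription were PPARA, the nuclear receptor of fatty acid oxidation (2 sites, 0.0589% and 0.0689%), CUX2, a homeodomain factor of cortical neurons (1 site, 0.153%), and PER3, a circadian clock component (2 sites, 0.154% and 0.416%).

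Genes with restricted expression were among the unmethylated ones as well. EPHB2, an ephrin receptor of axon guidance, had 1 site at 0.0778%, HTR7, a serotonin receptor, 1 at 0.236%, KCNMA1, the large-conductance potassium channel, 1 at 0.110%, and IL18R1, the interleukin 18 receptor, 2 at 0.191% and 0.268%. STX1A, a syntaxin of synaptic vesicle release, had 2 at 0.663% and 0.830%. CCCGGG-dense promoters could also be methylated, and these hold no dense unmethylated site: the sites of PRR18 averaged 91.4% to 97.9%, those of TTLL8, of the tubulin tyrosine ligase-like family, 73.7% to 96.3%, those of CERS3, the ceramide synthase of the skin barrier, 97.0% and 97.6%, and the 1 complete site of SOX1, a neural stem cell factor, 93.4%. Expression was not measured.

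Over the 275 windows matched through 3 or more sites, 457 sites were complete, of which 330 (72.2%) were dense unmethylated sites and 88 were at 20% or more. The 330 sites had a median of 0.208%, and 11 (3.33%) reached 1%. They averaged 0.289%, 0.251% and 0.370% in TET1-FL libraries, 0.268%, 0.294% and 0.374% in TET1-ALT libraries and 0.306%, 0.283% and 0.331% in Empty Vector libraries, and all groups overlapped. Their share among complete sites was 71.2% at over 150 bases before the start, 76.6% at over 50 and up to 150 before it and 69.2% from 50 before to 50 after it. The 193 windows with such a site held a median of 38 CpGs, against 37 in all windows with 3 or more CCCGGG sites, 32 in the 40 windows with a site of 20% or more and no such site, and 14 in all 35116 windows.

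Motifs were searched on both strands as a description of the windows. GGGCGG, the core of the GC box, which can overlap CCCGGG, was found in 185 of the 193 windows (95.9%), in 91.7% of all windows with 3 or more CCCGGG sites and in 45.0% of all windows. TATAAA, the core of the TATA box, was found in 2.07%, 1.60% and 11.5% of the same sets. CGCATGCGC, the letters of the NRF1 motif, was found in 1.55%, 1.87% and 1.92%.

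The sites were also grouped into clusters, runs of listed sites with gaps of at most 1000 bases. The 13323 sites fell into 3968 clusters, and 2431 clusters held 3 or more of them (10923 sites). Of the 2431, 1628 (67.0%) had every complete site under 5%, and 461 (19.0%) also held a site of 20% or more. Their median span was 1170 bases. In limma on cluster means, fitted over 6899 clusters with 3 or more complete sites, the number called at an adjusted p under 0.05 was 0 in each comparison, among these 2431 and over all clusters (0%). At an unadjusted p under 0.05, TET1-FL was lower than Empty Vector in 215 of the 2431 (8.84%, against 14.7% of all clusters) and higher in 21 (0.864%, against 0.884%). TET1-ALT was lower than Empty Vector in 6.13% of the 2431 (against 6.03%) and higher in 34 (1.40%, against 1.38%). TET1-FL was lower than TET1-ALT in 69 (2.84%, against 6%) and higher in 23 (0.946%, against 0.826%). Without Empty Vector replicate 1, 2 of the 2431 clusters were called lower in each comparison with Empty Vector, and also 2 of all 6899 clusters.

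Of the 5 clusters with the most dense unmethylated sites, 3 overlapped between all groups. The largest, on chromosome 7 (hg19, 5458095 to 5464359), held 20 such sites, and its mean over them was 0.164% ± 0.00465 in TET1-FL, 0.223% ± 0.0490 in TET1-ALT and 0.222% ± 0.0194 in Empty Vector libraries (SD, n = 3 each). There TET1-FL lay below both other groups. The second, with ZBTB7A on chromosome 19 (4064178 to 4068751), held 18 sites and averaged 0.360% ± 0.0480 in TET1-FL, 0.308% ± 0.0829 in TET1-ALT and 0.339% ± 0.0310 in Empty Vector libraries (SD, n = 3 each), all overlapping. The third, on chromosome 12 (34494384 to 34498938), was less clean: of its 23 complete sites 3 were at 20% or more, and its 16 dense unmethylated sites averaged 1.67% ± 0.103 in TET1-FL, 1.88% ± 0.139 in TET1-ALT and 1.88% ± 0.0511 in Empty Vector libraries, with TET1-FL below Empty Vector. The remaining 2, on chromosomes 8 and 11 with 15 and 13 sites, averaged 0.0933% and 0.164% over the 9 libraries and overlapped between groups.

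The widest separations were picked by their size, among clusters and sites with separate libraries, and are given as descriptions without a test. On chromosome 10 (73723740 to 73724493), a cluster of 4 sites averaged 1.17%, 0.732% and 0.495% in TET1-FL libraries, 1.38%, 1.43% and 0.858% in TET1-ALT libraries and 1.63%, 2.50% and 2.00% in Empty Vector libraries. It was the lowest cluster against Empty Vector for both TET1 forms, by 1.24 and 0.821 points. On chromosome 19 (42501456 to 42505259), a cluster of 3 sites beside 3 methylated ones averaged 1.11%, 0.917% and 1.13% in TET1-FL libraries, 2.70%, 2.39% and 2.66% in TET1-ALT libraries and 1.17%, 1.27% and 1.70% in Empty Vector libraries, so that TET1-ALT stood above both others. On chromosome 16 (67464727 to 67465599), 3 sites averaged 1.56% ± 0.657 in TET1-FL, 1.13% ± 0.213 in TET1-ALT and 0.623% ± 0.117 in Empty Vector libraries (SD, n = 3 each), with Empty Vector the lowest. Single sites carried much of these cluster values. Position 67465599 of the chromosome 16 cluster averaged 4.54% in TET1-FL, 3.22% in TET1-ALT and 1.73% in Empty Vector libraries. In the same order, position 42502325 of the chromosome 19 cluster averaged 1.14%, 3.68% and 1.13%. Position 73723740 of the chromosome 10 cluster averaged 1.57%, 3.62% and 5.11%.

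Among single sites, the one at position 56530730 of chromosome 18 (flank of 216 bases) had 4.09%, 4.15% and 7.37% in TET1-FL libraries, 0.50%, 0.52% and 0.60% in TET1-ALT libraries and 1.53%, 3.09% and 0.48% in Empty Vector libraries. TET1-FL lay above both other groups, which overlapped with each other. At position 151089595 of chromosome 7 (flank of 601 bases), TET1-ALT was the low group, with 0.80%, 0.66% and 0.52%, against 1.02%, 4.06% and 5.33% in TET1-FL libraries and 3.10%, 5.00% and 4.49% in Empty Vector libraries. Position 141042302 of chromosome 9 had the most negative difference for TET1-FL, with 3.08%, 3.49% and 2.39% in TET1-FL libraries, 5.48%, 3.61% and 4.71% in TET1-ALT libraries and 4.77%, 8.23% and 6.95% in Empty Vector libraries. Some of these rest on one library. At position 58152637 of chromosome 20, Empty Vector libraries had 11.8%, 5.83% and 4.88%, and the TET1-ALT difference of -4.02 points was -1.88 without Empty Vector replicate 1. At position 85495650 of chromosome 16, Empty Vector libraries had 1.24%, 7.50% and 1.74%, and the TET1-ALT difference of -2.85 points was -0.843 without Empty Vector replicate 2.

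No deposited standard sat at the level of these sites. The table also has 18 rows for 8 sequences that are not human, read here as the spiked-in standards, and the lowest of them read 6.20% to 7.35%, above the 5% limit of the class, with TET1-FL, TET1-ALT and Empty Vector libraries overlapping. The labels mention 5 standards, so what each of the 8 sequences is remains uncertain. Among the other rows, TET1-FL and TET1-ALT were both below Empty Vector in 1 row for Luc306 (23.1% ± 0.887 and 23.6% ± 0.397, against 24.1% ± 0.211; SD, n = 3 each). In 1 row for Taq324, TET1-FL was below the other groups (98.84% ± 0.0416, against 99.17% ± 0.0346 in TET1-ALT and 99.11% ± 0.194 in Empty Vector; SD, n = 3 each). In 1 row for Taq353, TET1-FL was below TET1-ALT (41.1% ± 0.390 against 42.6% ± 0.341). In the other rows, the groups overlapped in each comparison.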

How the data were processed

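DREAM methylation percentages of 9 HEK293T libraries were used as deposited. Per the labels' protocols, the authors took the share of methylated reads at each CCCGGG site in percent and corrected it with spiked-in standards, after 18 PCR cycles. Sites are on hg19, per the submitters' processing notes. The sources used here name no aligner and no caller. PCR reads without molecular identifiers are not independent molecules, and the depth per value is unknown.

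Sites were tested with limma 3.58.1 (R 4.3.3, trend and robust options, group means, no replicate term, Benjamini-Hochberg adjustment over all sites), checked on simulated data. The simulated losses exceeded the mean level of every dense unmethylated site, so the check does not cover differences of the size possible there. Per-library means were compared by two-sided exact permutation tests in Python 3.11.15. Members and lists were chosen with earlier results of these data known, and flank classes after the data were seen. Named sites were, per comparison, the 3 lowest and 3 highest differences with separate libraries, and named clusters the 5 with most sites plus the 2 lowest and 2 highest differences; a selection of both is printed. Sites were limited to 1 per cluster in each list. Named promoters came from the windows matched through 4 or more sites and were chosen after their values were seen.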

Additional observations from a re-analysis of the deposited data

How the results depend on the processing

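The mean over the dense unmethylated sites kept its direction in all 3 comparisons under the median, other neighbour rules, a 2% limit, 2 values per group and chromosome X, and no test passed its threshold. Its size moved: with 3 or more neighbours within 500 bases, TET1-FL differed from Empty Vector by -0.0219 points and TET1-ALT by -0.00182, with 6 or more neighbours by -0.0290 and -0.00895, and by medians by -0.0167 and -0.0133. With flanks of 100 to under 300 bases the TET1-ALT difference from Empty Vector turned to 0.0103 points. Leaving out single libraries gave -0.0620 to -0.0340 points for TET1-FL against Empty Vector, -0.0424 to -0.0136 for TET1-ALT against Empty Vector and -0.0340 to -0.00605 for TET1-FL against TET1-ALT. The dense minus sparse difference between TET1-FL and TET1-ALT ran from -0.00673 to 0.0179 points. With the replicate number as a block, TET1-FL differed from Empty Vector by -0.0484 points (exact sign-flip p = 0.25, the smallest that 3 pairs allow), and the block changed no call among the dense unmethylated sites and their clusters. Among the other clusters, it called 1 lower in TET1-ALT than in Empty Vector (limma adjusted p = 0.0389). Site by site, same-number correlations of deviations ran from -0.0684 to 0.0648, so the numbers were not taken as pairs, although replicate 3 had the highest mean in each group (0.0272, 0.0287 and 0.0288 points above the means of TET1-FL, TET1-ALT and Empty Vector). The count of sites called was 0 under every alternative. That of clusters ran from 0 to 2 when libraries were left out, both among the 2431 and over all 6899. Requiring a difference of 0.5 points left 268 dense unmethylated sites with TET1-FL below and 59 above Empty Vector. Over all 59751 complete sites, these counts were 6286 and 825. TET1-ALT lay below Empty Vector at 255 and above it at 58, against 3309 and 1405 of all complete sites. TET1-FL lay below TET1-ALT at 97 and above it at 48, against 4041 and 879 of all complete sites. Of the 7408 dense unmethylated sites with a mean under 0.2%, 0 met this requirement in each comparison. Such low levels leave little room for a difference of 0.5 points, so these counts cannot compare the class with all sites. The unknown depth limits values near the low end.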
